A study of Mus musculus with 2 samples.

Results

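Cytoplasmic ribosomal proteins are the protein subunits of the ribosome that translates nuclear-encoded mRNAs. Their genes were taken from the arrays by name: Rpl or Rps followed by a digit, together with Rpsa, Rplp0, Rplp1 and Rplp2, and without the Rps6k kinases. The rule found 84 genes among 27976 gene names, with 51 names of the large subunit (Rpl) and 33 that begin with Rps. They were read by 154 spots of 145 different probes. One of the 84, Rps19bp1, encodes a protein that binds Rps19 and is not itself a ribosomal protein. It was kept in the counts over members and left out of the counts by subunit.

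RNA of primary epidermal keratinocytes from wild-type mice and from K14-caSmad1 mice, both FVB/NJ at day 20 after birth, was compared on 2 two-colour arrays. In the transgenic mice the keratin 14 promoter, which is active in basal keratinocytes, drives a constitutively active form of Smad1, a transcription factor that relays bone morphogenetic protein signals. The wild-type RNA carried Cy3 and the K14-caSmad1 RNA carried Cy5 on both arrays, so dye and genotype cannot be told apart. The arrays are labelled as biological replicates 1 and 2, with no word on how many animals, or of which sex, gave each RNA.

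A ribosome is built from a small subunit, which reads the mRNA, and a large subunit, which joins amino acids and threads the growing chain through an exit tunnel. Nearly every subunit protein is present once per ribosome, and the mRNAs of these proteins are among the most abundant in dividing cells, where many begin with a pyrimidine tract that ties their translation to mTOR signalling. In skin, mouse mutations in Rps19 and Rps20 darken the footpads through p53 activity in keratinocytes.

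The probes below stand for the 3 genes that passed the 2-fold rule and for neighbouring probes of 1 gene that read apart. Each is printed as the sense strand of the array's 60-base probe, 5′ to 3′, and only a stretch of at most 30 bases is given. The first 3 lines are the last 30 bases of the only probe of Rps27a (mm9, chr11:29445848-29445907, minus strand), Rps15 (mm9, chr10:79756458-79756517, plus strand) and Rps23 (mm9, chr13:91064146-91064205, plus strand). Capitals mark a polyadenylation signal, AATAAA, which only the Rps27a probe of these 3 holds in that stretch.
Rps27a: gtgtatgcgttAATAAAaagaaggaactcg
Rps15: aaaaggaggcaccacccatggagaagcctg
Rps23: gaaaaggtcatgctgtaggtgatattcctg

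A pair of Rpl7a probes follows each other on the same transcript and shares 14 bases, in capitals here, at the end of the upstream probe (mm9, chr2:26768694-26768753) and the start of the downstream one (mm9, chr2:26768740-26768798).
Rpl7a upstream, last 30 bases: tctgtggctcgaattgCCAAGCTGGAAAAA
Rpl7a downstream, first 30 bases: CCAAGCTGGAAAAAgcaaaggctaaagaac

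Of the 84 genes, 82 had a probe well above background and were tested, 32 of the small subunit, 49 of the large subunit and Rps19bp1. At probe level 132 of the 145 were tested, and 130 of these were well above background in both channels on both arrays. Each of the 82 genes had a probe of that kind, so none entered through 1 genotype alone. Rpl3l, a paralogue of Rpl3 known from striated muscle, and Rpl39l, a paralogue of Rpl39 known from testis, were not well above background in either channel with their 1 and 2 probes. No member spot was saturated.

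The tested Smad1 probe, which may or may not lie in the transgene, had log2 ratios of 0.28 and 0.27. A gene was called where each array showed a change of 2-fold or more in 1 direction. Across the series 1632 of 11761 genes (13.9%) were called, of which 479 (4.07%) had more signal in the transgenic RNA and 1153 (9.8%) less. The SD of the difference between arrays was 0.109 over 14990 probes of 1 spot each, where spot noise within arrays predicts 0.119, and 0.0532 over the means of 115 repeated probes, where it predicts 0.0386. These values do not settle whether the arrays carry RNA of separate animals. The arrays are given side by side, and limma's p-values are read only as a measure of how well these arrays repeated. By that measure 10252 genes (87.2%) passed an adjusted p of 0.05. Keratinocyte markers were present, with 11 of 13 tested markers above 0 and a summed intensity of 421400 and 442900 in wild type against 688200 and 807000 in K14-caSmad1 on replicates 1 and 2. All 10 tested hair shaft markers were lower, with sums of 1445000 and 1621000 against 66530 and 67020. All 6 erythroid, all 5 melanocyte and all 4 endothelial markers tested were below 0, while 4 of 7 fibroblast and 3 of 9 leukocyte markers were. The part of these cell types in the values below was not tested, and in bulk RNA fewer cells of a type and less RNA per cell cannot be told apart.

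Ribosomal protein genes stayed close to parity between the genotypes. One gene, Rps23, was called higher, and Rps27a and Rps15 were called lower. Read by the brightest probe of each gene, the 3 genes make 3.66% of the 82 members, against 13.9% of all genes, 4.07% higher and 9.8% lower. With every probe counted, 13 of 132 member probes passed 2-fold, where 2005 of 15122 probes did, so the low share depends partly on the choice of probe. The median log2 ratio of K14-caSmad1 over wild type was -0.08 for the 82 members and -0.03 for all genes. Members ranged from -1.42 to 1.17 with an SD of 0.48 across genes, and 58 of them (70.7%) lay within 0.5 of 0, where 59% of all genes did. There were 37 members above 0 and 45 below it. This balance turned with the scaling, to 54 above and 28 below under median centring, and was 30 above and 52 below when a gene was the mean of its probes. Under limma with Benjamini-Hochberg adjustment 30 were higher and 38 lower, where 40.9% of all genes were higher and 46.3% lower. Of 7580 other genes over the members' whole intensity range, 17.1% were called, and their SD was 0.98. Of 268 other genes with an intensity from the members' lower quartile to their maximum, 36.9% were called, and their SD was 1.82.

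Within the family, genes read by their brightest probe differed from one another by more than the arrays did. Across the 82 genes the log2 ratios of the arrays correlated with r = 0.967 and rho = 0.959, as a description of genes that share the same RNAs, dyes and slide. The difference between arrays had an SD of 0.13 for the members, well under the SD of 0.48 across them. Probes of 1 gene also differed, with a median range of 0.52 in 39 members with several tested probes. The spread across genes thus includes differences between probes. The arrays read clearly apart for a few genes. Rplp2 was at -0.53 on replicate 1 and 0.08 on replicate 2, Rps19 at -0.44 and -0.02, and Rps4x at -0.50 and -0.17. For Rplp2 the arrays thus gave opposite signs. Limma did not call Rplp2 (adjusted p = 0.258) or Rps19 (adjusted p = 0.125).

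**Figure D1:**
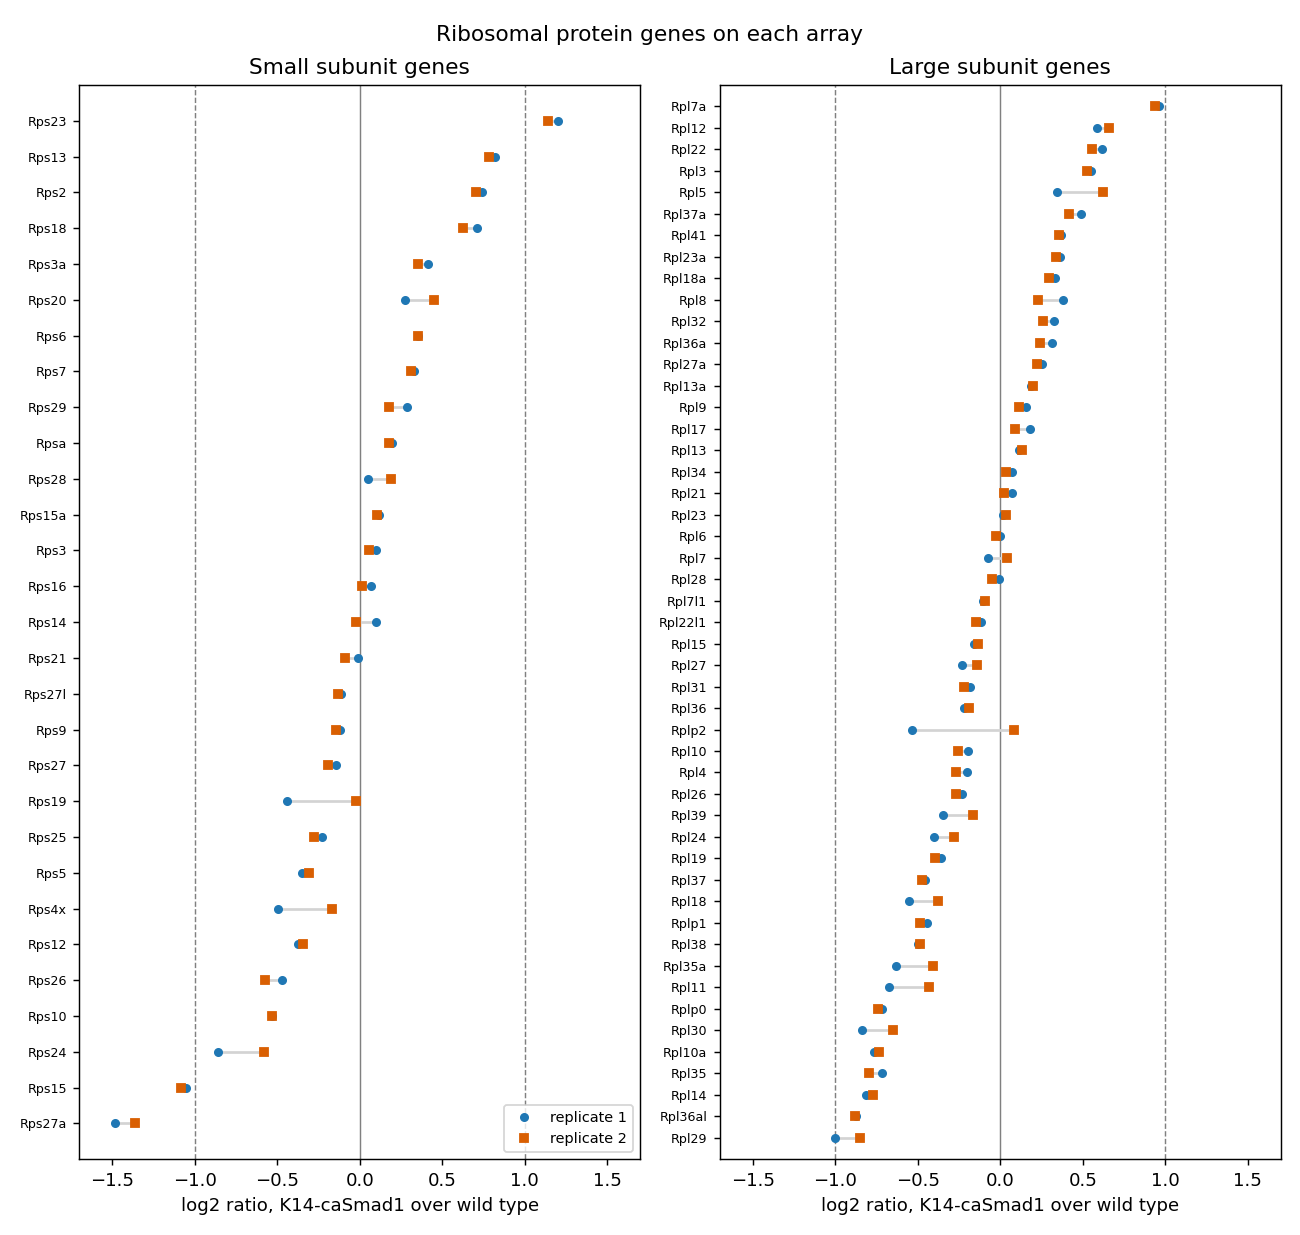
Log2 ratio of K14-caSmad1 over wild type (x axis) for 29 tested small subunit genes (left) and the 49 tested large subunit genes (right), with replicate 1 as circles and replicate 2 as squares, and dashed lines at 2-fold. Only Rps23, Rps15 and Rps27a lie beyond a dashed line on both arrays, and most pairs of points nearly coincide.

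Small subunit genes reached both ends of the range when each gene was read by its brightest probe. Their median was 0.04 over 32 genes, with 17 above 0 and 15 below. All 3 members past 2-fold were among them (9.38%, beside 13.9% of all genes). Rps23 encodes a protein of the decoding centre, where codon and anticodon are matched. Its normalised intensity was 59210 in wild type and 136600 in K14-caSmad1 on replicate 1, and 62320 and 137400 on replicate 2. The K14-caSmad1 channel was the higher on both arrays, with log2 ratios of 1.21 and 1.14 (mean 1.17, SE 0.03, 2.26-fold, limma adjusted p = 5.2e-05).

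Rps27a encodes a fusion of ubiquitin with a small subunit protein, and is one of the genes that supply the cell with ubiquitin. Its intensity was 25460 in wild type and 9104 in K14-caSmad1 on replicate 1, and 41530 and 16180 on replicate 2. The log2 ratios were -1.48 and -1.36 (mean -1.42, SE 0.04, 2.68-fold lower, limma adjusted p = 6.07e-05). Although replicate 2 was brighter in both channels, the wild-type channel was the higher on both arrays.

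Rps15, a protein of the small subunit head, had intensities of 27890 in wild type and 13460 in K14-caSmad1 on replicate 1, and 27320 and 12890 on replicate 2. Its log2 ratios were -1.05 and -1.08 (mean -1.07, SE 0.03, limma adjusted p = 4.81e-05), just past the 2-fold line. With median centring of each array in place of loess it stood at -0.82, without background subtraction at -0.92 and with every spot in the background fit at -0.98, and in these settings it was not called.

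Below that line, Rps13 (0.81), Rps2 (0.72) and Rps18 (0.67) were among the highest small subunit genes, by their brightest probe. The other Rps13 probe read -0.81, and other Rps18 probes read 0.70 and 0.04. Rps2 and Rps18 lie near the mRNA channel and the head, and the arrays differed by at most 0.09 for these 3 genes. Rps24 (-0.72), Rps10 (-0.53) and Rps26 (-0.52) were the lowest after the called pair, again by the brightest probe. Other Rps24 probes read -0.53 and 0.11, and the mean of its probes was -0.38, so its place depends on the probe. Rps6, the protein that S6 kinases phosphorylate, had log2 ratios of 0.35 on replicate 1 and 0.36 on replicate 2. The receptor for activated C kinase, Rack1, and Fau, which encodes a ubiquitin-like fusion to a small subunit protein, have names outside the rule and stood at 0.56 and 0.49.

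With their brightest probe, large subunit genes held no call in 49, where 13.9% of all genes were called. Their median was -0.13 and their range -0.93 to 0.95. Of the 49, 20 were above 0 and 29 below. Limma called 17 higher and 25 lower, where 40.9% of all genes were higher and 46.3% lower. Rpl29, a small surface protein, was the lowest. Its intensity was 7524 in wild type and 3756 in K14-caSmad1 on replicate 1, and 8554 and 4753 on replicate 2, with log2 ratios of -1.003 and -0.85. All 4 of its probes read below 0, from -1.23 to -0.80. Replicate 1 alone, or the mean of its probes, would put Rpl29 past 2-fold. Dimmer probes of Rpl10 (-1.78), Rpl6 (-1.75), Rpl21 (-1.37), Rpl35a (-1.22) and Rpl29 itself (-1.23 and -1.12) were past 2-fold lower on both arrays. The absence of calls in the large subunit therefore depends on the choice of probe.

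The next lowest were Rpl36al (-0.88), Rpl14 (-0.79), Rpl35 (-0.76), Rpl10a (-0.75) and Rpl30 (-0.74). At the other end stood Rpl7a (0.95) and Rpl12 (0.62). The only Rpl12 probe is placed by the array's annotation on chromosome 10, which is not RefSeq's chromosome for Rpl12. For Rpl7a the intensity was 52650 in wild type and 102700 in K14-caSmad1 on replicate 1, and 51790 and 99350 on replicate 2. The brightest Rpl7a probe was thus 1.93-fold higher, just under the 2-fold line, while its other probes read below 0. Nearest to 0 by their brightest probe were Rpl6 (-0.02), Rpl7 (-0.02), Rpl23 (0.02) and Rpl28 (-0.03). The other Rpl6 probe read -1.75, and other Rpl7 probes read 0.11 and -0.50.

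Genes were also set out by the place of their protein in the ribosome, in groups drawn up after the values had been seen. The stalk, which recruits elongation factors, had Rplp0 at -0.73, Rplp1 at -0.47, Rplp2 at -0.23 and Rpl12, at its base, at 0.62. Which copy the Rpl12 probe reads was not tested. Rplp0 is also used as a reference gene, and its single probe was spotted 10 times. The spots averaged -0.72 ± 0.016 (SD, 9 spots) on replicate 1 and -0.74 ± 0.02 (SD, 10 spots) on replicate 2, an error of spotting and not of animals. By this probe Rplp0 was 1.66-fold lower in K14-caSmad1 with loess, and the size depends on the scaling. Its log2 ratio was -0.47 under median centring and -0.60 without background subtraction.

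Among the 8 genes of the exit tunnel and its rim, 6 were below 0, from Rpl35 at -0.76 to Rpl23a at 0.35 (median -0.24), where 45 of all 82 members were below 0. The other Rpl23a probe read -0.63 and the mean of both was -0.14, so the upper end of this range and the count depend on the probe. The same holds for Rpl17, at 0.13 with its brighter probe and -0.26 as a mean. The proteins that bind Mdm2 when ribosome assembly fails, and so link it to p53, were split. Rpl5 had log2 ratios of 0.34 and 0.62, Rpl11 of -0.68 and -0.43, Rpl26 of -0.23 and -0.27, and Rpl23 of 0.01 and 0.04. Rpl5 and Rpl11 act together in that complex and lay on opposite sides of 0 on both arrays.

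Mouse skin and patterning mutants gave no common direction. Rps20 stood at 0.37 and Rps19 at -0.23, Rps7 at 0.32, Rpl24, mutated in belly spot and tail mice, at -0.34, and Rpl38, mutated in tail short mice, at -0.49. Of 19 genes mutated in Diamond-Blackfan anaemia, a failure of red cell production, 14 were below 0 by their brightest probe (median -0.20). None was past 2-fold by that probe. Of 82 members 45 were below 0 and 3.66% were called, and of 11761 genes 6160 were below 0 and 13.9% were called. The lowest of the 19 was Rpl35 and the highest Rpl5, again by the brightest probe. Dimmer probes of Rpl35a (-1.22) and Rps28 (1.03) were past 2-fold on both arrays. As the mean of its probes Rpl35a stood at -0.87, below Rpl35, so the lowest rank depends on the probe.

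Paralogues are set beside their parent genes. Rpl36al, a retrogene copy of Rpl36a, had log2 ratios of -0.87 and -0.88. The 3 Rpl36a probes read -0.31, 0.07 and 0.28, and their mean was 0.01, so the sign of Rpl36a depends on the probe. Rpl22l1 was at -0.12 and -0.15 and Rpl22, which represses it at the RNA level, at 0.62 and 0.56 with its brighter probe and at 0.08 and 0.06 with the other. Rps27l, a p53 target, stood at -0.11 and -0.13 beside Rps27 at -0.14 and -0.19. Rpl7l1 was at -0.11 and -0.09 beside Rpl7 at -0.08 and 0.04 with its brightest probe. Other Rpl7 probes had means of 0.11 and -0.50. Rpl22l1, Rps27l and Rpl7l1 turned positive under median centring, at 0.11, 0.11 and 0.21. The differences between a paralogue and its parent were not tested, and near-identical copies and processed pseudogenes can share signal on the array.

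Probes of the same gene disagreed often enough to limit any statement on 1 gene. Of 39 member genes with several tested probes, 20 (51.3%) had probes at least 0.5 apart on the log2 scale and 10 (25.6%) at least 1 apart. Among all 2822 genes with several tested probes the shares were 44.6% and 15.7%. The median range between probes was 0.52 for members and 0.44 for all such genes. Opposite signs past 0.5 were read for Rpl7a and Rps13 (5.13% of the members, against 2.52%).

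The 2 Rpl7a probes printed above, which share 14 bases, read 0.96 and 0.94 upstream and -0.95 and -0.94 downstream on replicates 1 and 2. A further probe nearer the start of the transcript read -0.28. Rps13 had a bright probe at 0.81 and a dim one, designed on a longer cDNA clone, at -0.81. For Rpl7a and Rps13 the sign of the gene therefore depends on the probe.

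In Rps3a the gap was also wide. Its probe that starts at base 378 of the transcript read 0.41 and 0.35, and the one that starts at base 643 read -1.45 and -1.48. For Rpl6 the probe at base 739 read -0.004 and -0.03 and that at base 641 read -1.71 and -1.79. The first 30 bases of each are given to show which stretch each value belongs to.
Rps3a, base 378: accatgattgaagctcacgttgatgtcaag
Rps3a, base 643: tccatgatgtctttgttagaaaagtaaaaa
Rpl6, base 739: atcttcgacacagagaaggagaaatacgag
Rpl6, base 641: caaaagttgatatcagcgatgtgaaaattc

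Rps2 was higher with both tested probes (0.72 and 1.31), and its second probe passed 2-fold. Rps28, with 4 probes, ranged from -0.15 to 1.03, and Rps21, with 3, from -1.14 to -0.05. Rpl10 had a probe at -0.23 and another at -1.78. The array's own annotation places that second probe on chromosome 8 and the only Rpl12 probe on chromosome 10, whereas RefSeq places Rpl10 and Rpl12 on other chromosomes. Which copy these probes read was not tested. Counted probe by probe, 13 of the 132 member probes passed 2-fold on both arrays, 3 higher and 10 lower, where 2005 of 15122 probes did.

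**Figure D2:**
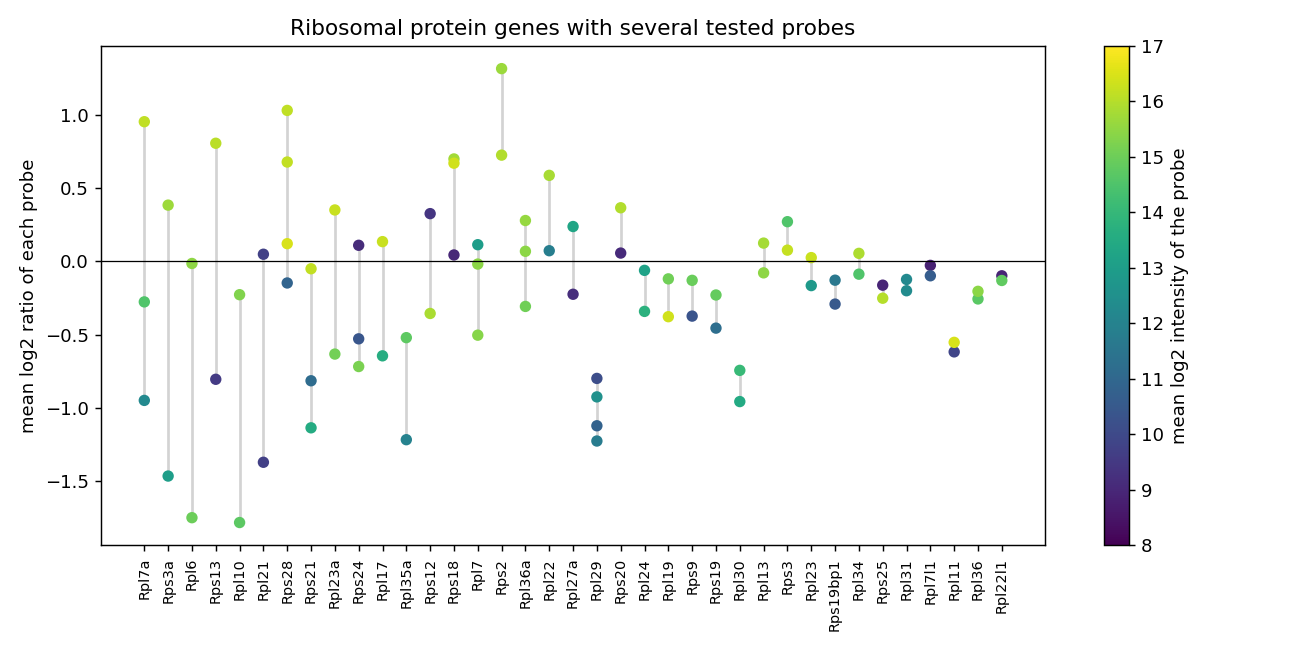
Mean log2 ratio of every tested probe (y axis) of 37 member genes with several probes, ordered by the gap between their highest and lowest probe and coloured by mean log2 intensity. Rpl7a and Rps13 have probes at least 0.5 above and at least 0.5 below 0, and the brighter probe is often the higher one.

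Features of the probes were described after the values had been seen, and none was tested. The first is brightness. The brightest probe of a gene read higher than the dimmest in 27 of the 39 genes (69.2%), against 52.4% of all such genes. Across the 132 probes the log2 ratio and mean log2 intensity correlated with r = 0.34 and rho = 0.45. By intensity the median was -0.23 under 12 (26 probes), -0.34 from 12 to 15 (39), -0.02 from 15 to 16 (36) and 0.13 from 16 upwards (31). Other probes in the same ranges had medians of -0.02, -0.004, -0.18 and -0.41. In these ranges 3 of 26, 7 of 39, 1 of 36 and 2 of 31 member probes passed 2-fold on both arrays. Among other probes the shares were 11.2%, 20.5%, 33.3% and 49.1%. Member probes make 35.2% of all tested probes from 16 upwards. When their spots were given no weight in the loess, the members' median went from -0.075 to -0.082, and the calls were again Rps27a, Rps15 and Rps23. The 154 member spots are few among 43379 gene spots at a span of 0.3, so this setting could move the fit only slightly.

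**Figure D3:**
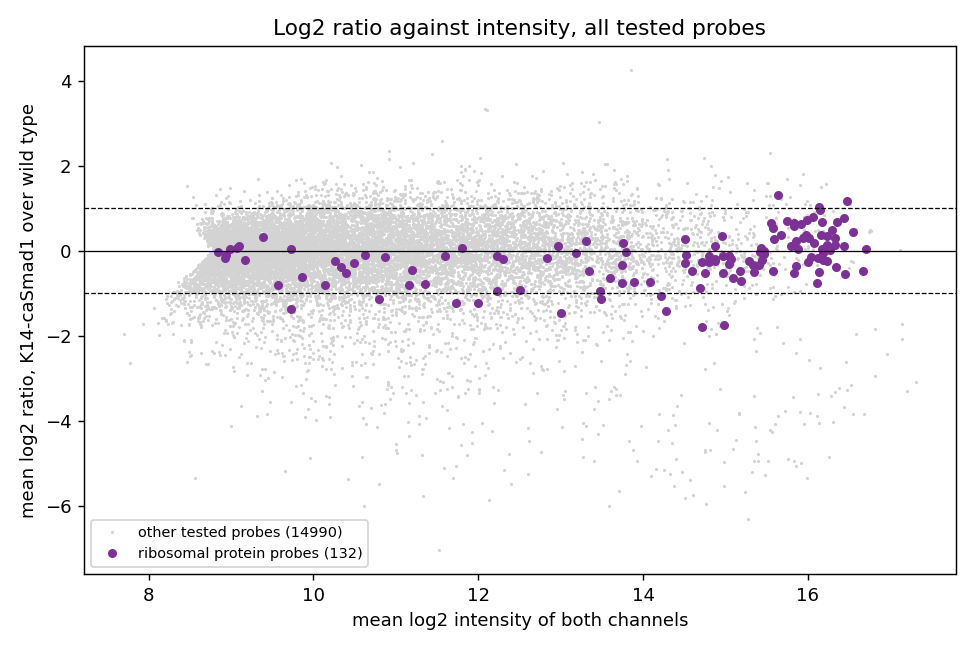
Mean log2 ratio (y axis) against mean log2 intensity of both channels (x axis) for 132 ribosomal protein probes over 14990 other tested probes, with dashed lines at 2-fold. Ribosomal protein probes crowd the bright end and stay in a narrower band than other probes of that brightness.

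The second is a polyadenylation signal, AATAAA or ATTAAA, searched on the sense strand of the probe. It was present in 20 member probes (15.2%), against 7.25% of all tested probes. The 20 probes had a median of -0.41 with 16 below 0, and the 112 others -0.11 with 66 below 0. Among all 15122 tested probes the medians were -0.10 with the signal and -0.02 without. The third is the base composition. The probe richer in G and C read higher in 17 of 34 genes whose probes differ in it, and across probes r was 0.14. The RNA was amplified before labelling, per the labels, and the part of amplification in these differences was not tested.

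The start of the mRNA was examined because ribosomal protein mRNAs are known for their terminal oligopyrimidine tract. In RefSeq's GRCm38.p6 promoters of 300 bases, 64 of the 84 genes were found. A C followed by at least 4 C or T on the sense strand, beginning within 5 bases of the annotated start, was present for 29 of the 64 (45.3%), against 21.2% of all 27025 genes. At the start base itself the shares were 20.3% and 3.01%. The 30 bases around the start are given for 4 genes that hold it, with the stretch matched from within the window in capitals. In Rpl35, Rpl14 and Rpl7a the run of C and T also continues upstream of the capitals. Rpl35 (chr2:39005117-39005146, minus strand) and Rpl14 (chr9:120571502-120571531, plus strand) were low. Rps23 (chr13:90923107-90923136, plus strand) was high, and Rpl7a (chr2:26910792-26910821, plus strand) was high with its brightest probe only.
Rpl35: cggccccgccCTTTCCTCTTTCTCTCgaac
Rpl14: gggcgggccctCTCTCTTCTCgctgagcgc
Rpl7a: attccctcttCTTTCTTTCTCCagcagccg
Rps23: gccttcggctgggcggggCTTCCCgcaatg

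Rpl35 and Rps23, from the low and the high end of the range, thus both hold such a tract. The median log2 ratio was -0.13 for 29 tested genes with it and -0.10 for 33 without. A match describes these letters only, and a tract outside the window would be missed.

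The rest of the translation machinery is described from lists chosen with earlier results of these data known. Mitochondrial ribosomal protein genes had 2 of 73 higher past 2-fold, Mrps14 (1.35) and Mrps16 (1.03), none lower and a median of 0.01. Ribosome assembly factors had 1 of 69 lower, Wdr12 (-1.35), with a median of 0.14. Pno1 (1.02), Riok2 (1.01) and Brix1 (0.98), which act in late small subunit or large subunit assembly, were next. Both lists thus had few calls (2.74% and 1.45%) beside 13.9% of all genes.

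Initiation factors had 7 of 37 called (18.9%, beside 13.9% of all genes), all of them lower (median -0.16), with Eif2b4 (-2.003), Eif3d (-1.82), Eif3j1 (-1.79) and Eif2s2 (-1.47). Elongation factors and other genes with a start tract had 3 of 14 higher and 3 lower (42.9% called). Tpt1 (-1.96) and Eef1a1 (-1.30) were lower, and Vim (1.39) and Npm1 (1.19) higher. All 4 are known for a start tract like that of the ribosomal proteins. Of the S6 kinases and mTOR genes 3 of 19 were lower (15.8% called, near the share of all genes), Rps6ka3 (-3.74), Eif4ebp1 (-2.10) and Rps6kc1 (-1.31). Assembly chaperones, importins and p53 genes had no call in 17 (median 0.07), with Tnpo1 (-0.95) and Pdcd2 (0.77) at the ends.

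**Figure D4:**
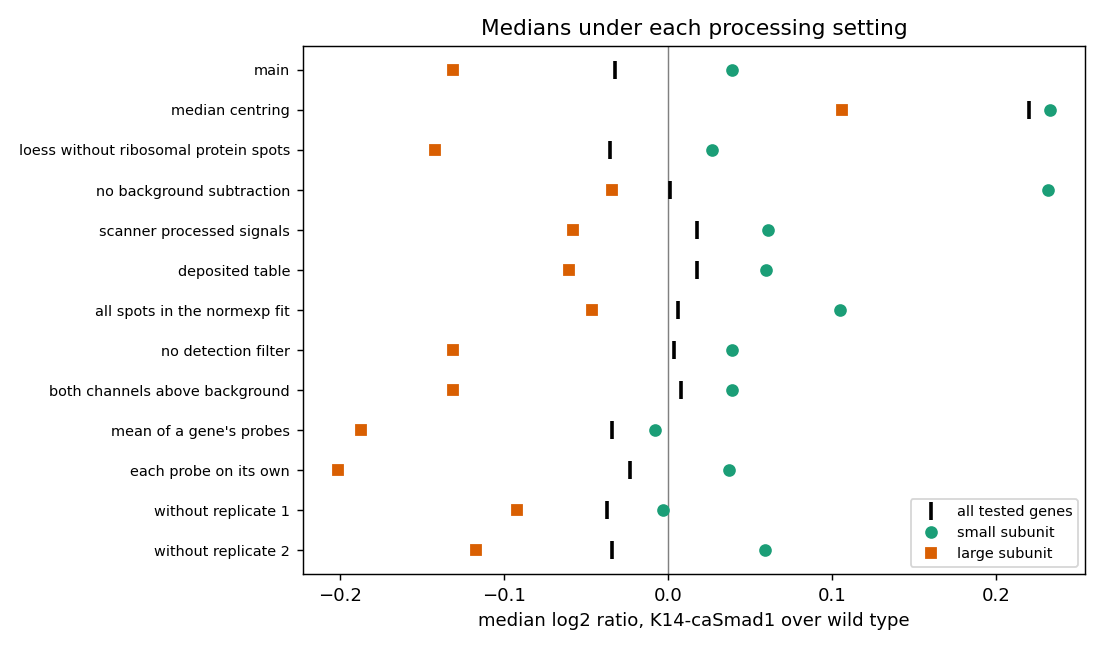
Median log2 ratio (x axis) of all tested genes (black bars), small subunit genes (circles) and large subunit genes (squares) under each way of processing the arrays (y axis). The small subunit median lies above the large subunit median in all 13 settings shown, and median centring moves every median upwards.

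Small and large subunit medians kept their order in all 13 settings, with the small subunit above the large. The gap between them was 0.17, under the SD of 0.44 across large subunit genes, and it was not tested. It was 0.09 without replicate 1 and 0.18 without replicate 2.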

How the data were processed

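The scanner files hold mean signal and local background intensities per spot, and processed intensities that Agilent Feature Extraction 10.5.1.1 had background-subtracted, detrended and dye-normalized, per the file headers. The headers name mm9 as the build of the probe positions. The deposited series table holds log10 ratios of Cy5 over Cy3. It differed from the log10 of the processed signals' ratio by at most 0.00397, with a slope of 1 and medians of 0.023 and -0.01, so scale, direction and centring are known.

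From the intensities, normexp (limma 3.58.1, R 4.3.3, offset 50) was run without the 36 spots of replicate 1 on non-uniform background, followed by loess (span 0.3) with weight 0 for controls and outliers. Log2 ratios of repeated spots were averaged. A probe was tested if its Cy3 signal, or its Cy5 signal, was well above background on each array, and the brightest tested probe stood for a gene. The call needed 2-fold in 1 direction on each array. LmFit and eBayes were run over all 11761 genes with Benjamini-Hochberg adjustment, on 1 residual degree of freedom. The number of arrays limits precision. The fit was tested on simulated data.

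Names came from RefSeq GRCm38.p6 for other genes (24844 probes by accession, 6045 by symbol, 1810 by synonym, 8475 unchanged). Members kept the array's name. Members, lists and the rule for named genes (past 2-fold, 8 highest, 8 lowest, paralogues, probes 0.5 apart, 4 nearest 0, up to 4 per other list) were chosen with earlier results of these data known; genes named by role, and Rps24, Rps10, Rps26 and Rps6, were chosen after their values were seen. Values of a few genes of the ribosome are not reported here and are left out of the plots by gene; they stay in the counts and medians.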

Additional observations from a re-analysis of the deposited data

How the results depend on the processing

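Each ratio compares both RNAs on the same array, so the values are paired by array. The arrays form a single group of ratios, and limma tested their mean against 0. A block for the slide was not run, since both arrays lie on 1 slide. The count of members past 2-fold was 3 as reported and 2 to 4 under the other settings, except that probes counted 1 by 1 gave 13. Leaving out replicate 1 or 2 gave 3 and 4 members, a median of -0.036 and -0.092, and 1763 and 1746 genes past 2-fold. The members' median was -0.075 and lay between -0.155 and 0.033 elsewhere, but rose to 0.191 under median centring, which also moved the median of all genes from -0.032 to 0.22 and the calls to 1110 higher and 811 lower. Genes past 2-fold numbered 1632, with 3131 from the scanner's processed signals, 3127 from the deposited table and 777 with every spot in the normexp fit. Genes past limma's threshold numbered 10252, with 3275 in that normexp fit and 17766 with no filter on dim probes. Rps23 and Rps27a were past 2-fold in every setting run. Rps15 was not past it under median centring (-0.817), without background subtraction (-0.922) and in the normexp fit on every spot (-0.975). Rpl7a passed it under median centring (1.153) and without background subtraction (1.133), and was at -0.091 as the mean of its probes. Rps13 passed it under median centring (1.008). The cause of these changes was not tested. Dim probes near background carry the least certain ratios.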
